A study of Mus musculus with 3 samples.

Results

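The genes examined sense microbial molecules or pass on that signal, and they have 10 members: the Toll-like receptors Tlr1, Tlr2, Tlr3, Tlr4, Tlr6, Tlr7, Tlr9 and Tlr13, the adaptor Myd88 and the Tlr4 partner Ly96. They were found by matching each array probe's RefSeq transcript to these symbols. Of the 10 members, 9 had a probe on the array, by 10 probes in 37 spots, and 8 entered the fit beside 18488 genes in all. Tlr13 had no probe, and both Tlr3 probes were left out by the filter on dim signals.

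The series set fibroblasts labelled SA1-null against fibroblasts labelled wild type, both primary cultures of connective-tissue cells from mouse embryos at E12.5. SA1, the product of Stag1, is a subunit of cohesin, the ring complex that holds DNA strands together. Both groups were untreated and grown in medium with 10% serum, and 1 µg of RNA was labelled for each. Each of 3 Agilent arrays, called biological replicates in the labels, set a Cy3 sample labelled SA1-null against a Cy5 sample labelled wild type. The labels give neither the strain, the SA1 allele nor the number of embryos behind a culture, and no dyes were swapped, so an effect of dye cannot be told apart from one of genotype. The p-values below measure only the spread between these 3 arrays, which limma moderates with the spread of all genes. The number of arrays limits the precision.

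Toll-like receptors are membrane proteins whose outer part binds microbial products and whose inner part recruits adaptors. Tlr1, Tlr2, Tlr4 and Tlr6 act mostly at the cell surface, and Tlr3, Tlr7, Tlr9 and Tlr13 act on nucleic acids inside endosomes. Myd88 links nearly all of them, but not Tlr3, to kinases that lead to NF-kB and inflammatory genes. Macrophages carry most of these receptors, and fibroblasts are known to carry some of them.

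Before any direction is drawn, the gene named in the labels has to be given. The brightest Stag1 probe had log2 ratios of Cy3, labelled SA1-null, over Cy5, labelled wild type, of 3.34, 3.74 and 3.47 on arrays 1, 2 and 3. Its mean was 3.52 ± 0.21 (SD, n = 3), an 11.4-fold higher signal in the channel labelled SA1-null, and limma gave an adjusted p of 0.0273. The other 3 Stag1 probes averaged 3.53, 2.17 and 0.59, the last with no array well above background in Cy5. The gene thus goes against the labels, which do not say what part of it was deleted. Stag2, another cohesin subunit of this type, averaged -0.11 ± 0.12 (SD, n = 3) at its brightest probe. Its other probe had ratios of 0.19, 0.25 and 0.68. Every direction below is therefore one between channels by their labels, and which genotype each channel held is not settled here.

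Across the arrays no spot was saturated, between 60.6% and 66.0% of probes were well above background in Cy3, and between 62.0% and 67.0% were in Cy5. The dyes differ in raw brightness, which loess normalization sets level within each array, so that the raw signals below show how bright a probe was and the log2 ratios give the comparison. In all, 58 of 18488 genes passed an adjusted p of 0.05 in limma, 2 higher and 56 lower in the channel labelled SA1-null.

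The start-site regions of 4 members are printed to set Tlr1 and Tlr2, which had ratios below 0 on every array, beside Tlr9 and Myd88, which stayed near 0. The windows come from RefSeq on GRCm38.p6 and run from 250 bases before to 50 bases after an annotated start, with capitals for matches to 5 short motifs searched on both strands. The table held 9 windows for 7 members, and Tlr4, Tlr7 and Ly96 were not among them. Those of Tlr3, Tlr6 and Tlr13 are not printed. Tlr1 had 2 windows, of which window 1 is printed, and window 2, chr5:64932650-64932949, held none of the 5 motifs. The printed Tlr1 window is chr5:64933509-64933808 on the minus strand, that of Tlr2 is chr3:83841559-83841858 on the minus strand, that of Tlr9 is chr9:106222348-106222647 on the plus strand, and that of Myd88 is chr9:119339969-119340268 on the minus strand.
Tlr1: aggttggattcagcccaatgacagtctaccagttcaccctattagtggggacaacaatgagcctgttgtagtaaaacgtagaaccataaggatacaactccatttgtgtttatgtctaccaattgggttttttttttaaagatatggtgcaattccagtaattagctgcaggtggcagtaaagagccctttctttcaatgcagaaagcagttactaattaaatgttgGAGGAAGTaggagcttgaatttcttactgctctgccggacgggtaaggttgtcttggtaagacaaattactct
Tlr2: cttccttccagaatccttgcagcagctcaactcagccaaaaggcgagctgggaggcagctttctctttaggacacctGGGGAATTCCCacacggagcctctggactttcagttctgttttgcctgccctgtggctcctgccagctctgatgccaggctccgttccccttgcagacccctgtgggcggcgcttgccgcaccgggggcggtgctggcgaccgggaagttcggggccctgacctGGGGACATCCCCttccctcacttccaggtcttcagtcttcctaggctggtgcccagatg
Tlr9: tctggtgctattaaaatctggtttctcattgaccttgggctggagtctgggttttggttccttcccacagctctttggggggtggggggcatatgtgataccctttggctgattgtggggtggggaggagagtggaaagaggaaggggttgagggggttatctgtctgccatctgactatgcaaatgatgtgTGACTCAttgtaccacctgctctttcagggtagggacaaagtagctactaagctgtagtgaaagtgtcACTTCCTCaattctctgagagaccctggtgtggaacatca
Myd88: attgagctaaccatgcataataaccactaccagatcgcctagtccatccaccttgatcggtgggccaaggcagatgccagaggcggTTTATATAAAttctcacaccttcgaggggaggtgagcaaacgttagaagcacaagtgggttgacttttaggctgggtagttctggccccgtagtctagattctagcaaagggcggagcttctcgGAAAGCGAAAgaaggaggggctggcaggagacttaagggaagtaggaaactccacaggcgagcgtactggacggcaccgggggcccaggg

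In the printed Tlr1 window the capitals mark GAGGAAGT, a motif of the myeloid factor PU.1 type, which begins 23 bases before the start (-23). The same motif stood on the other strand of the Tlr9 window at position 11 after the start, and 3.202% of all 32851 windows held it. Thus it was found in 1 of 2 windows of a gene with ratios below 0 and in the window of a gene with ratios near 0. The Tlr9 window also held TGACTCA, an AP-1-type motif, at -58 (5.202% of windows), and it had no CpG.

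The Tlr2 window had 2 capital stretches of the NF-kB type (GGG, then 5 free bases, then CC), which begin at -173 and at -9. Their 7 matches overlap each other and count both strands, and 50.79% of all windows held at least 1 match, so that this pattern is common. The window was 62% G and C, with 11 CpG. In the Myd88 window the capitals mark an interferon-type motif (TTTC, then 2 free bases, then TTTC) on the minus strand at -40 (3.443% of windows) and overlapping TATAAA motifs at -164 and -160 (13.62% of windows). A match describes letters only, and these arrays measured no binding.

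No member passed the test across all genes. limma with Benjamini-Hochberg adjustment called 0 of the 8 members, against 0.314% of all genes tested in either direction and 0.303% in the lower direction. Of the 8 members, 3 had an unadjusted p under 0.05, and all 3 were lower in the channel labelled SA1-null: Tlr2, Tlr7 and Tlr1. Over all genes, 5.15% had an unadjusted p under 0.05 in that direction. The same 3 members were below 0 on 3 of 3 arrays, as were 19.1% of all genes. The median log2 ratio was -0.25 over the 8 members and -0.02 over all genes.

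**Figure D1:**
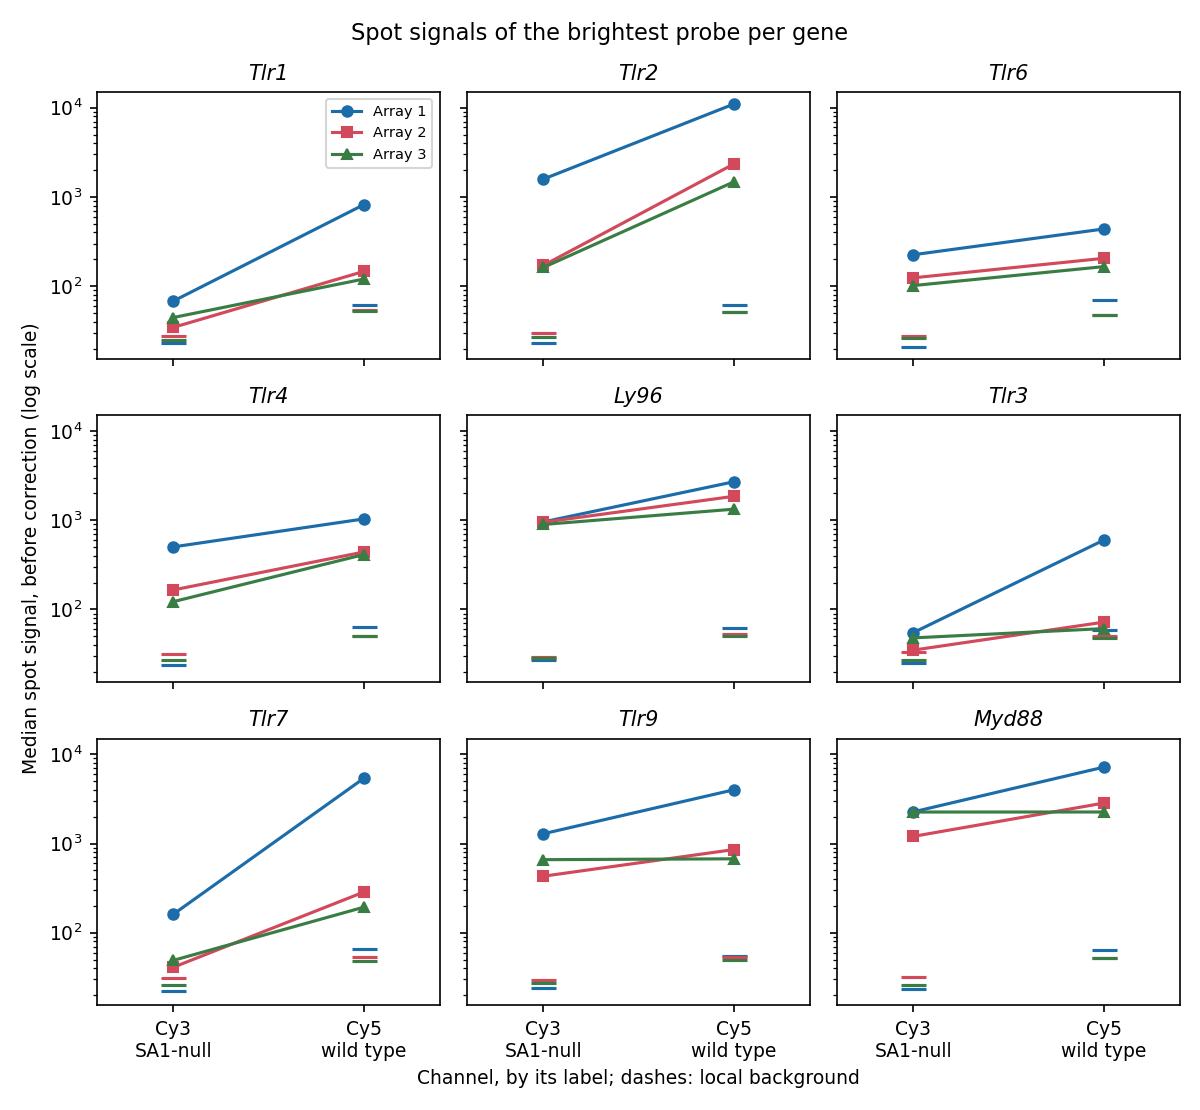
Median spot signal (log scale, before background correction) of the brightest probe of 9 members in the Cy3 channel labelled SA1-null (left of each panel) and the Cy5 channel labelled wild type (right), with a line for each of 3 arrays and dashes for the local background. Tlr7 on array 1 had a signal of 161 in Cy3 and 5356.5 in Cy5, while Ly96 lay between 896 and 957 in Cy3 and between 1329 and 2693 in Cy5.

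Among the surface receptors, Tlr2, which binds bacterial lipoproteins together with Tlr1 or Tlr6, had a mean ratio among the lowest of the members, with Tlr7. Its median signals were 1583, 170.8 and 162.0 in the Cy3 channel labelled SA1-null, against 10965, 2332 and 1470.8 in the Cy5 channel labelled wild type, on arrays 1, 2 and 3. The log2 ratios were -1.06, -2.62 and -2.94, so that all arrays lay below 0 and array 1 stood apart from the others. The mean of -2.21 ± 1.00 (SD, n = 3) is a 4.62-fold lower signal in the channel labelled SA1-null, with an unadjusted p of 0.00319 and an adjusted p of 0.244 in limma.

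Tlr2 was spotted 10 times on each array, which gives the error within an array beside the spread between arrays. The ratios of its spots ran from -1.13 to -0.83 on array 1, from -2.77 to -2.52 on array 2 and from -3.01 to -2.87 on array 3. The SD among spots was at most 0.084, against 1.00 between arrays. The spots are technical repeats, so the arrays, not the spots, are the replicates of the comparison. Without replicate 1 the Tlr2 mean was -2.78 with an adjusted p of 0.00248, and without replicate 3 it was -1.84 with an adjusted p of 0.826.

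Tlr1, the partner of Tlr2 for triacylated lipopeptides, was dim. Its signals were 68, 34.5 and 44.5 in the channel labelled SA1-null, where 2 of 3 arrays were well above background, against 816, 146 and 120 in the channel labelled wild type, where all 3 were. The log2 ratios were -1.68, -0.74 and -0.64, with a mean of -1.02 ± 0.57 (SD, n = 3), an unadjusted p of 0.0116 and an adjusted p of 0.452 in limma. All 3 arrays lay below 0. The size of the ratio moved with the background correction: the mean was -1.75 with a normexp offset of 0 (adjusted p = 0.0297) and -2.51 with the processed signals of the scanner software (adjusted p = 0.0151).

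Tlr6, the partner of Tlr2 for diacylated lipopeptides, did not share this pattern. Its signals were 225, 124 and 101.5 in the channel labelled SA1-null, against 437, 205 and 165.5 in the channel labelled wild type. The normalized log2 ratios were 0.66, 0.21 and -0.36, which lie on both sides of 0, and the mean was 0.17 ± 0.51 (SD, n = 3) with an adjusted p of 0.868 in limma. Its mean was -0.04 under median centring and -0.08 without replicate 1, so no direction can be given.

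Tlr4, the receptor for bacterial lipopolysaccharide, differed in sign between arrays. Its median signals were 502.2, 165.3 and 122.2 in the channel labelled SA1-null, against 1033, 439.8 and 411.4 in the channel labelled wild type. The log2 ratios were 0.60, -0.41 and -1.45, with a mean of -0.42 ± 1.02 (SD, n = 3) and an adjusted p of 0.797 in limma. Only 4.83% of all genes had a larger SD between arrays. Its 10 spots ran from 0.55 to 0.65 on array 1, from -0.53 to -0.32 on array 2 and from -1.56 to -1.25 on array 3, so that no spot of one array overlapped those of another. Without replicate 3 the mean was 0.09.

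Ly96, which binds lipopolysaccharide on the outer part of Tlr4, had signals of 957, 949 and 896 in the channel labelled SA1-null, against 2693, 1852 and 1329 in the channel labelled wild type. Its log2 ratios of 0.18, 0.04 and -0.49 gave a mean of -0.09 ± 0.36 (SD, n = 3), with an adjusted p of 0.919 in limma. The arrays lay on both sides of 0, and without replicate 3 the mean was 0.11. As with Tlr2, Tlr4 and Tlr6, the lowest ratio was on array 3 and the highest on array 1. The share of all genes with this order was not counted. The ratios of 142 genes with a symbol lay within a root mean square difference of 0.1 from those of Ly96.

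**Figure D2:**
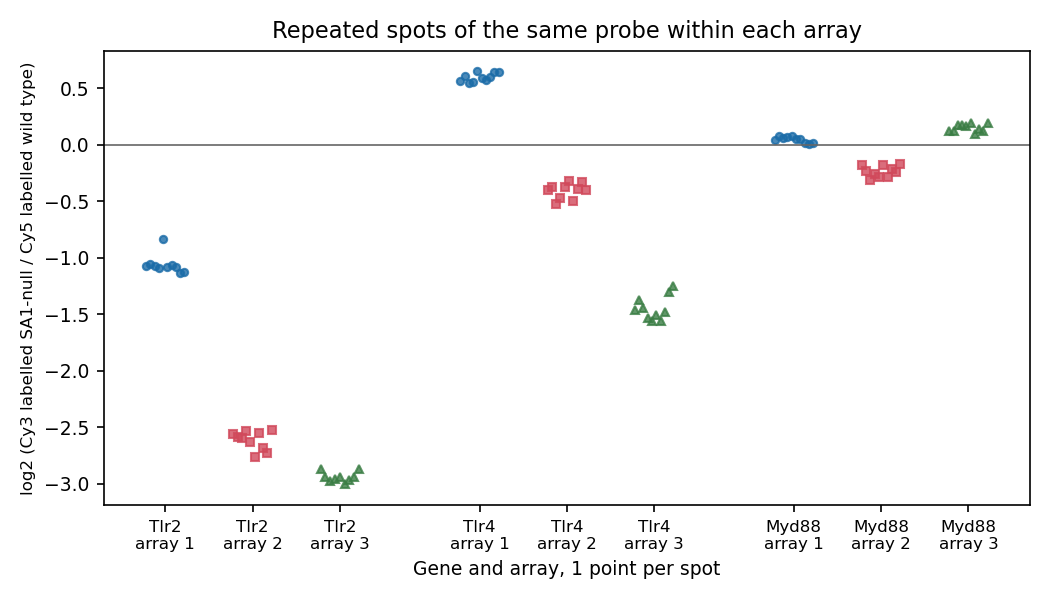
Log2 ratio of each repeated spot (vertical axis) of the Tlr2, Tlr4 and Myd88 probes on arrays 1, 2 and 3 (horizontal axis), as the Cy3 channel labelled SA1-null over the Cy5 channel labelled wild type. Spots of an array cluster tightly, from -3.01 to -2.87 for Tlr2 on array 3, while the Tlr2 and Tlr4 arrays stand apart from each other.

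Of the endosomal receptors, Tlr7, which senses single-stranded RNA, had a mean close to that of Tlr2. It was higher than that of Tlr2 in the processing used here and lower than it with the processed signals, with an offset of 0, with slide as a fixed term and without replicate 2 or 3, so no order of the 2 can be given. Its signals were 161, 41 and 49 in the channel labelled SA1-null, against 5356.5, 285 and 193 in the channel labelled wild type, and all were well above background. The log2 ratios were -3.19, -1.46 and -1.27, all below 0, and here array 1 was the lowest, unlike for Tlr2. The mean of -1.98 ± 1.06 (SD, n = 3) is a 3.93-fold lower signal in the channel labelled SA1-null, with an unadjusted p of 0.00608 and an adjusted p of 0.342 in limma.

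The Tlr7 ratios on arrays 2 and 3 moved most with the treatment of background. With the processed signals the 3 ratios were -3.43, -3.33 and -2.67, with a mean of -3.14 ± 0.41 (SD, n = 3) and an adjusted p of 0.00445 in limma. With a normexp offset of 0 the mean was -2.79 with an adjusted p of 0.00963. Without replicate 1 the mean was -1.37 with an adjusted p of 0.0221. The sign was the same under every alternative that was run, and the call was not.

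Tlr9, which senses unmethylated CpG DNA, gave the most even ratios of the members. Its signals were 1285.5, 430 and 659 in the channel labelled SA1-null, against 3995, 854.5 and 673.5 in the channel labelled wild type. The log2 ratios were 0.06, 0.01 and 0.02, and the mean was 0.03 ± 0.03 (SD, n = 3) with an adjusted p of 0.970 in limma. Of all genes, 99.3% had a larger SD between arrays. Median centring in place of loess gave -0.31, when the median of all genes was -0.30.

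Tlr3, the receptor for double-stranded RNA, had 2 probes, and neither was well above background in the same channel on all 3 arrays. The brighter one had signals of 55, 35 and 48 in the channel labelled SA1-null, against 597.5, 72 and 61 in the channel labelled wild type, with ratios of -1.54, -0.19 and 0.19. The other had 48, 35 and 40 in the channel labelled SA1-null, against 446, 60 and 64 in the channel labelled wild type, with ratios of -1.34, -0.08 and 0.01. Each was well above background on 2 of 3 arrays in the channel labelled SA1-null, and they were on 2 and on 1 of 3 arrays in the channel labelled wild type. No test was made on them in the filtered data.

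Myd88, the shared adaptor, was bright in both channels and near 0. Its median signals were 2262, 1202 and 2252 in the channel labelled SA1-null, against 7170, 2836 and 2255 in the channel labelled wild type. The log2 ratios were 0.05, -0.24 and 0.15, and the mean was -0.01 ± 0.20 (SD, n = 3) with an adjusted p of 0.988 in limma. Its sign turned under 4 alternatives, with values up to 0.10, so that no direction can be given.

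**Figure D3:**
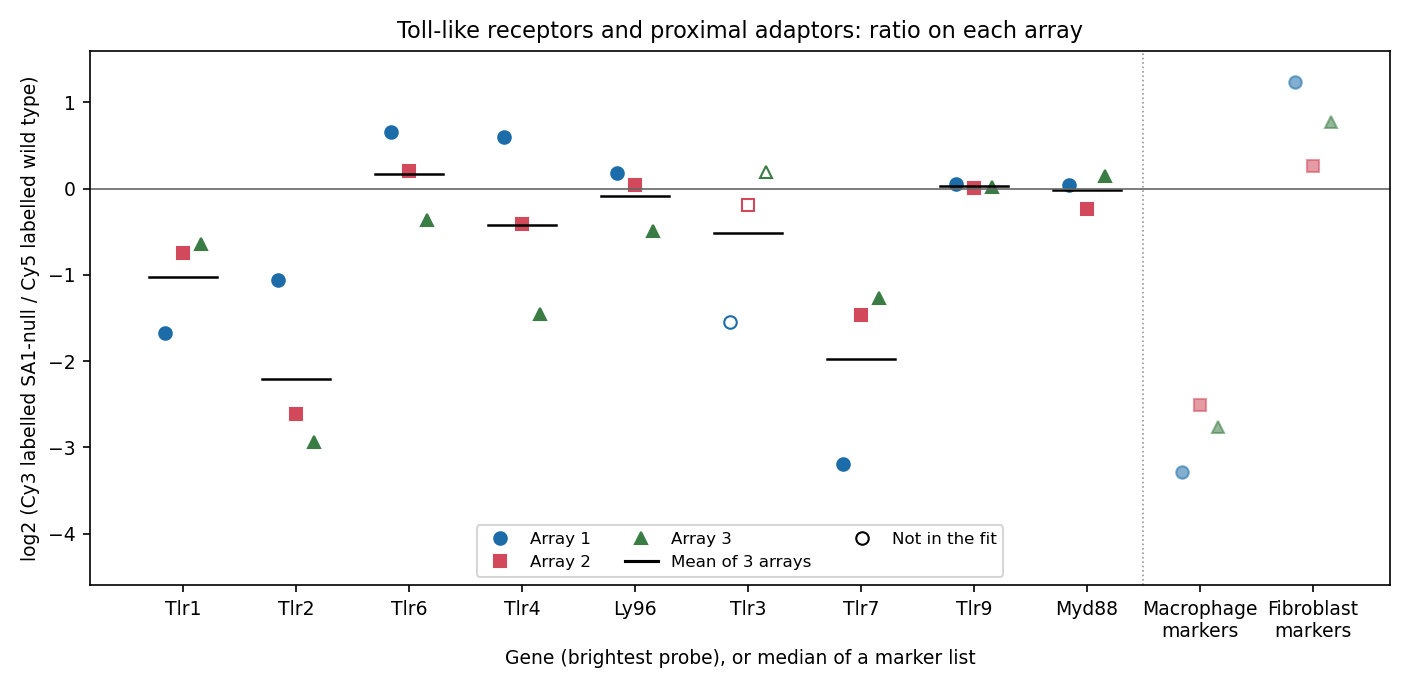
Log2 ratio of the Cy3 channel labelled SA1-null over the Cy5 channel labelled wild type (vertical axis) on each of 3 arrays for the brightest probe of 9 members (horizontal axis), with bars for means and open symbols for Tlr3, which was not in the fit. At the right are the medians of the macrophage and fibroblast marker lists, and only Tlr1, Tlr2 and Tlr7 among the members lie below 0 on all arrays.

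The genes with ratios most like those of Myd88, the member with the highest mean intensity, were Znhit1, Reep4, Pcdhb5, Snu13 and Tnip1. Their root mean square difference from Myd88 over the 3 arrays ran from 0.0213 to 0.0289 log2 units, and 158 genes lay within 0.1, so that this likeness is common near 0. For the 3 members with ratios below 0 the nearest genes were looked up after their values had been seen. Spi1, which encodes the myeloid factor PU.1, was nearest to Tlr1, with ratios of -1.69, -0.69 and -0.64 and a difference of 0.0283. Pld4 and Prkcb were nearest to Tlr7 (0.0867 and 0.0925), and Treml4 and Lilrb4a, which encodes an inhibitory receptor of myeloid cells, were nearest to Tlr2 (0.211 and 0.216). Over 3 arrays such likeness is a description only.

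The other genes of the pathway were taken from lists of 60 genes. Of these, 56 had a probe, 49 were tested and 1 was called, against 0.314% of all genes, and their median log2 ratio was -0.09. Of the 49, 8 had an unadjusted p under 0.05, against 7.49% of all genes in either direction, and 7 of them were lower in the channel labelled SA1-null, against 5.15% of all genes. Tlr5, Tlr11, Tlr12 and Nfkb1 had no probe. Tlr8, another endosomal receptor for RNA, was not well above background on any array in the channel labelled SA1-null. It was on 1 of 3 arrays in the channel labelled wild type, so no size of a difference is given.

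Partners that carry ligands or receptors had a median of -1.29, and all 7 tested genes of this list had a mean below 0, as did 54.4% of all genes. The median is the value of Cd36 here and without replicate 3, where it was -0.81. With an offset of 0 the median was -1.79, which is the value of Unc93b1. Cd14, which hands lipopolysaccharide to Tlr4 and Ly96, had signals of 1188.5, 240 and 368 in the channel labelled SA1-null, against 13023, 2204 and 1662 in the channel labelled wild type. Its log2 ratios of -1.73, -2.12 and -2.07 gave a mean of -1.97 ± 0.22 (SD, n = 3), 3.93-fold lower in the channel labelled SA1-null with an adjusted p of 0.0410 in limma. This call was lost without replicate 2 (mean of -1.90, adjusted p = 0.293), without replicate 3 (-1.92, adjusted p = 0.570), under median centring (-2.33, adjusted p = 0.0576) and with no filter on dim probes (-1.97, adjusted p = 0.119), while the size of the ratio stayed close to that above.

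Unc93b1, the chaperone that brings Tlr3, Tlr7, Tlr9 and Tlr13 to endosomes, had log2 ratios of -2.27, -1.31 and -1.62 and a mean of -1.73 ± 0.49 (SD, n = 3), with an adjusted p of 0.110 in limma. Ly86, the partner of the receptor-like protein Cd180, had ratios of -4.58, -1.91 and -2.27 and a mean of -2.92 ± 1.45 (SD, n = 3), with an adjusted p of 0.270 in limma. Cd180 itself was not well above background on any array in the channel labelled SA1-null. It was on 2 of 3 arrays in the channel labelled wild type, so no size of a difference is given. Cd36, a scavenger receptor that assists Tlr2 with Tlr6, had ratios of 0.32, -1.94 and -2.24, which is the array order of Tlr2, Tlr4, Tlr6 and Ly96. The Cd36 mean of -1.29 was -2.09 without replicate 1 (adjusted p = 0.00376) and -0.81 without replicate 3 (adjusted p = 0.827). The Ly86 mean was -2.09 without replicate 1 (adjusted p = 0.00398), -3.58 with an offset of 0 (adjusted p = 0.0101) and -3.71 with the processed signals (adjusted p = 0.00754). The widely used folding factors Hsp90b1 and Cnpy3 averaged -0.20 and -0.05. Lbp, the serum protein that binds lipopolysaccharide, was well above background on 1 of 3 arrays in each channel and was not tested.

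Downstream of the receptors the medians were close to 0. In the list of other adaptors and IRAK and TRAF signalling genes, 14 were tested, and the median was -0.02. In limma 0 were called and 0 had an unadjusted p under 0.05, against 0.314% and 7.49% of all genes. With so few genes, counts of 0 cannot be told apart from these shares. The 4 genes of this list with the smallest p were Peli1 (-0.36), Tab3 (-0.42), Traf3 (-0.53) and Irak2 (-0.52). Of these, Peli1 alone lay below 0 on all arrays, at its brightest probe. Its other probe had ratios of -0.70, -0.38 and 0.71, with a mean of -0.12. Without replicate 1 the means of Irak2 and Traf3 were -0.04 and -0.14. Tirap, which brings Myd88 to Tlr2 and Tlr4, averaged -0.02 ± 0.38 (SD, n = 3), and Ticam1, the adaptor of Tlr3, averaged 0.30 ± 0.41 (SD, n = 3). Ticam2, which couples Ticam1 to Tlr4, was not well above background on any array in the channel labelled SA1-null.

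In the IKK, NF-kB and IRF list, 11 genes were tested, and the median was 0.01. In limma 0 were called and 0 had an unadjusted p under 0.05, against 0.314% and 7.49% of all genes, which so few genes cannot be told apart from. Irf5, a factor that acts after Tlr7 and Tlr9 in myeloid cells, had the lowest mean, -1.10 ± 1.08 (SD, n = 3), from ratios of -2.25, -0.94 and -0.11, with an adjusted p of 0.667, and without replicate 1 its mean was -0.52. Ikbke averaged -0.35, Nfkb2 averaged -0.17 and Chuk averaged 0.17. Rel was not well above background in either channel on any array.

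The list drawn up as inhibitors of the pathway, whose roles were not tested here, had a median of -0.29. Of its 12 genes, 9 had a mean below 0, against 54.4% of all genes, and 0 were called in limma, against 0.314%. Of these, 4 had an unadjusted p under 0.05, against 7.49% of all genes: Pik3ap1 (-1.15 ± 0.88), Tnfaip3 (-1.01 ± 0.77), Nfkbiz (-0.66 ± 0.45) and Nfkbia (-0.69 ± 0.54; SD, n = 3 for each), with adjusted p of 0.588, 0.591, 0.617 and 0.656. Tnfaip3 and Nfkbia restrain NF-kB and are themselves among its targets. All 4 were below 0 on all arrays, and without replicate 1 the means of Pik3ap1 and Tnfaip3 were -0.64 and -0.61. The median of the list was -0.10 without replicate 1 and -0.45 without replicate 3.

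The interleukin-1 receptor family shares the inner domain of the Toll-like receptors and Myd88. Of this family, 5 genes were tested, with a median of 0.15. In limma 0 were called and 1 had an unadjusted p under 0.05, against 0.314% and 7.49% of all genes. Il1r1, the signalling receptor for interleukin-1, averaged 0.65 ± 0.52 (SD, n = 3; ratios of 1.24, 0.30 and 0.40) with an adjusted p of 0.663. Il1r2, a decoy receptor, averaged -0.40, Il1rap averaged -0.28 and Il18rap averaged 0.15. Il18r1 was not well above background in either channel on any array, and Il1rl2 was on 1 of 3 arrays in the channel labelled SA1-null and on none in the channel labelled wild type. The list's median was -0.12 without replicate 1 and -0.24 under median centring, so no direction can be given for it.

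**Figure D4:**
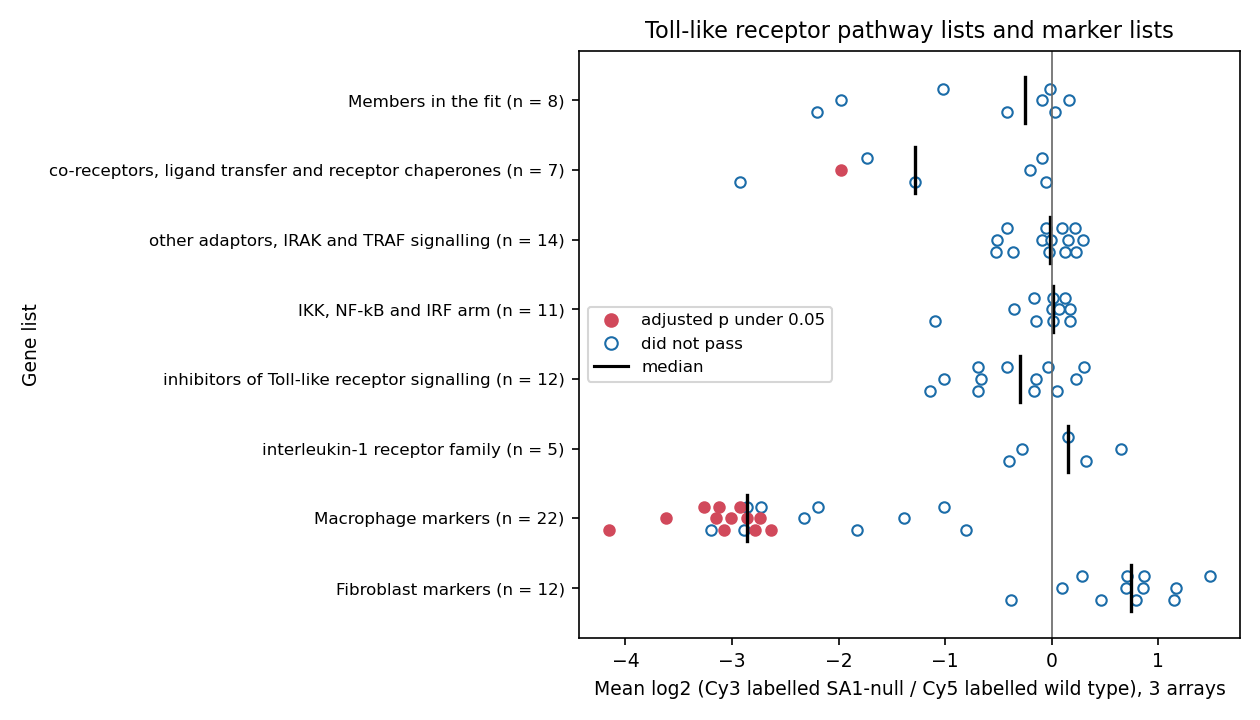
Mean log2 ratio over 3 arrays (horizontal axis; channel labelled SA1-null over channel labelled wild type) of each tested gene in the members, the pathway lists and the macrophage and fibroblast marker lists (vertical axis), with bars for medians and filled points for an adjusted p under 0.05. The co-receptor and chaperone list has a median of -1.29, the macrophage markers have -2.86, and the signalling lists lie close to 0.

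Markers of macrophages also lay below 0, as did Tlr1, Tlr2 and Tlr7. The median of the markers was lowest on array 1, as were the ratios of Tlr1 and Tlr7, while that of Tlr2 was highest there. For Tlr1 this order moved with the processing. With the processed signals its ratios were -2.21, -3.27 and -2.04 on arrays 1, 2 and 3, so that array 2 was lowest. Those of Tlr7 were then -3.43, -3.33 and -2.67. All 22 tested genes of the list of 24 macrophage markers were below 0 on all arrays, against 19.1% of all genes. Of the 22, 12 were called lower in the channel labelled SA1-null, against 0.303% of all genes. The median was -2.86, with -3.29, -2.50 and -2.77 on the 3 arrays. The summed signals of the list ran from 12374 to 40007 in the channel labelled SA1-null and from 229648 to 1606790 in the channel labelled wild type, and 20 and 22 of its genes were well above background on all arrays in these channels. The genes with the smallest p were Lyz1 (-3.62 ± 0.23), Tyrobp (-3.15 ± 0.15), Ms4a7 (-3.12 ± 0.22) and Msr1 (-2.63 ± 0.18; SD, n = 3 for each), all with an adjusted p of 0.0273 in limma. The part of these cells in the values of Tlr1, Tlr2 and Tlr7 and of Cd14, Unc93b1 and Ly86 was not tested. In RNA of whole cultures, fewer cells of a type and less RNA per cell cannot be told apart.

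All 14 fibroblast markers cleared background in each channel of every array. Those not tested had a brightest probe with only flagged spots on at least 1 array. Of the 12 tested, 11 had a mean above 0, against 45.6% of all genes. Their median was 0.75, and 0.32 under median centring. In limma 0 were called and 6 had an unadjusted p under 0.05, against 0.314% and 7.49% of all genes. The summed signals of all 14 ran from 392918 to 679337 in the channel labelled SA1-null and from 640863 to 1029910 in the channel labelled wild type. Of 7 dendritic cell markers, 3 were tested: Itgax (-0.57; ratios of 0.32, -1.22 and -0.81), Zbtb46 (0.22) and Xcr1 (-0.05). In limma 0 of the 3 were called and 0 had an unadjusted p under 0.05, against 0.314% and 7.49% of all genes. Siglech, Ccr7 and Cd209a were not well above background in either channel on any array.

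The 3 members with ratios below 0 were set side by side under other processing. The Tlr2 mean stayed between -2.78 and -1.84, that of Tlr7 between -3.14 and -1.37 and that of Tlr1 between -2.51 and -0.69. The side of the threshold was not stable for any of them, whereas their sign was the same throughout. Slide 1 held array 1 and slide 2 held arrays 2 and 3, so that the values of array 1 and the means of the other arrays (-2.78 for Tlr2, -1.37 for Tlr7, -0.69 for Tlr1 and -0.93 for Tlr4) are the values within slides. With slide as a fixed term the means were -1.92 for Tlr2, -2.28 for Tlr7, -1.18 for Tlr1 and -0.17 for Tlr4. The spread of a gene in that fit came from arrays 2 and 3 alone, and limma moderated it with the spread of all genes.

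**Figure D5:**
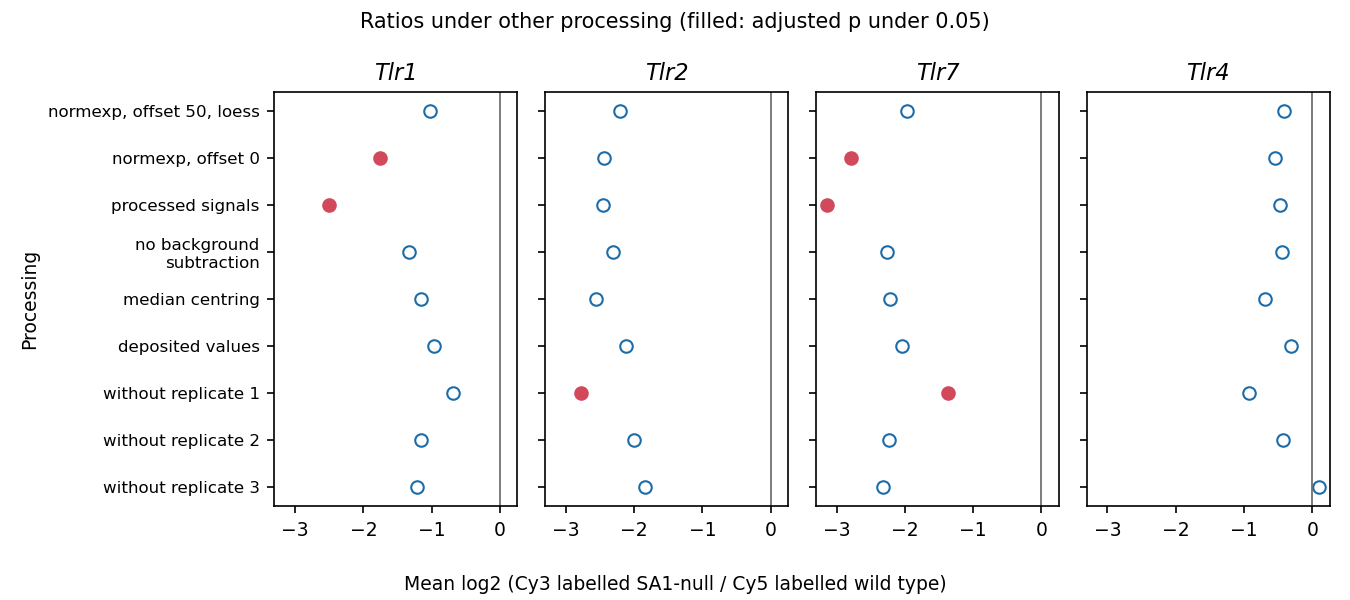
Mean log2 ratio (horizontal axis; channel labelled SA1-null over channel labelled wild type) of Tlr1, Tlr2, Tlr7 and Tlr4 under the processing used here and 8 others (vertical axis), filled where the adjusted p was under 0.05. Tlr1, Tlr2 and Tlr7 stay below 0 throughout, and Tlr4 crosses 0 without replicate 3.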

How the data were processed

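RNA from cultures labelled SA1-null (Cy3) and wild type (Cy5) was compared on 3 two-colour arrays. The scanner files hold spot and background intensity values made with Feature Extraction 10.1.1.1 (array 1) and 10.7.3.1 (arrays 2 and 3), per the file headers. Their log10 ratio of processed Cy5 over Cy3 and their flags for spots above background are also as deposited. A deposited table for the series has log2 values made with limma, per the submitters' processing notes. Their settings, and the limma version, were not given in the sources used here. Compared with the present ratios these log2 values ran as Cy5 over Cy3 (correlations of 0.985, 0.982 and 0.997 across probes, medians of -0.02, -0.02 and -0.01), so the sign used here is opposite to theirs, and their centring stays unknown. The direction comes from the dyes in the labels.

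Here limma 3.58.1 (R 4.3.3) corrected the background by normexp with an offset of 50, applied loess within each array with weight 0 for control spots and flagged spots (116, 125 and 207), and averaged the spots of a probe. Probes well above background in 1 channel on all 3 arrays were kept (24117 of 41174). Of these, a probe with only flagged spots on an array had no ratio there and was left out. With flagged spots kept, 18548 genes were tested. Each gene took its brightest probe, as 4487 genes had several. Of the 18488 genes tested, 12034 had a symbol, through the RefSeq transcript in the GRCm38.p6 gene table, and 6454 did not. lmFit and eBayes tested the mean ratio against 0 with Benjamini-Hochberg adjustment at 0.05. A sign-flip test over 3 arrays cannot go below a two-sided p of 0.25 and was not run. The code was tested on simulated data.

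Named were all members, Stag1 and Stag2, every called pathway gene, up to 4 genes with the smallest p in each pathway list and in the macrophage list, those not well above background, and the 5 genes nearest to the member of highest mean intensity. The further genes given by role (Tirap, Ticam1, Hsp90b1, Cnpy3, the dendritic cell markers and the nearest genes of Tlr1, Tlr2 and Tlr7) were chosen after their values were seen. The members and lists were chosen with earlier results of these data known. Alternatives changed the background, the normalization, the filter, the probe rule, the variance model, the slide term and the arrays used. Protein sequences were not used here. Figures were drawn with matplotlib 3.10.9.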

Additional observations from a re-analysis of the deposited data

How the results depend on the processing

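The log2 ratios of Tlr1, Tlr2 and Tlr7 stayed below 0 under every alternative that gave a value, while the calls moved. Members called numbered 0 here, 1 with array weights, an alternative chosen after seeing the data (Tlr2), 2 with a normexp offset of 0 (Tlr1 and Tlr7), 2 with the processed signals (Tlr1 and Tlr7), 3 with slide as a fixed term, and between 0 and 2 with 1 replicate left out, the 2 being Tlr2 and Tlr7 without replicate 1. At an unadjusted p under 0.05 there were 3 members here, 2 with the filter on both channels, which drops Tlr1, and 4 without replicate 1. The members' median was -0.57 under median centring, which moved the median of all genes to -0.30, against -0.25 here, and it ran from -0.46 to -0.03 with 1 replicate left out.

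All genes called numbered 58 here, 132 at an adjusted p threshold of 0.1, 185 with array weights, 142 with trend and robust, 34 under median centring, 118 with no background subtraction, 0 with no filter on dim probes in limma, 265 with an offset of 0, 325 with the processed signals, 1772 with slide as a fixed term, 92 with both channels above background and 0 to 284 with 1 replicate left out (284 without replicate 1, 0 without replicate 2 or 3). Other pathway genes called numbered 1 here, 2 with array weights, 0 under median centring, 0 with no filter, 3 with an offset of 0, 3 with the processed signals, 11 with slide as a fixed term and 0 to 4 with 1 replicate left out. The causes were not tested, except that fewer arrays or more genes entered some fits.

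Signs turned for Chuk (-0.19 under median centring, -0.070 to 0.33 with 1 replicate left out), Il18rap (-0.013 with array weights), Ly96 (-0.23 to 0.11 with 1 replicate left out), Myd88 (0.052 with the deposited values, 0.014 with the processed signals, 0.0022 with slide as a fixed term, -0.094 to 0.099 with 1 replicate left out), Stag2 (0.13 as the mean of the kept probes), Tlr4 (-0.93 to 0.095 with 1 replicate left out), Tlr6 (-0.039 under median centring, -0.078 to 0.43 with 1 replicate left out) and Tlr9 (-0.31 under median centring). Each array's ratio sets the samples of 1 number against each other, so the test of the mean ratio was already paired by array. No separate paired analysis was run. Slide as a random block was not run, since its correlation could not be estimated from 3 arrays. Signals near background in the channel labelled SA1-null limit the size of the Tlr1, Tlr3 and Tlr7 ratios.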
